A study of Macaca mulatta with 6 samples.

Results

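The voltage-gated sodium channel subunits, voltage-gated calcium channel subunits and ATP-driven sodium and calcium pumps were read from 62 of the 52865 probe sets of a rhesus macaque microarray. A probe set is a group of short oligonucleotides that measures one transcript. Members were the probe sets whose platform annotation gives exactly 1 gene symbol, where that symbol begins with CACNA, CACNB, CACNG, ATP1A, ATP1B, ATP2A or ATP2B, or is SCN followed by a digit and A or B. They cover 35 of the 14132 genes named by such probe sets, 20 with several probe sets and 15 with 1, and the rule uses their names only. The RNA came from serotonin neurons cut by laser from the dorsal raphe nucleus of 6 female rhesus macaques (Macaca mulatta), with 1 array per monkey. The 2 placebo monkeys carry the tag Ovx in their titles, 2 monkeys received estrogen, and 2 received estrogen and progesterone (the combined group below). All steroids were given in silastic capsules placed under the skin for 1 month. The labels do not say whether the hormone-treated monkeys were also ovariectomized, and they give no ages, doses or number of captured cells.

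Voltage-gated sodium channels carry the fast upstroke of the action potential through a large alpha subunit, and small beta subunits anchor and tune it. Voltage-gated calcium channels turn electrical activity into calcium entry: an alpha1 subunit forms the pore, alpha2delta and beta subunits bring it to the membrane, and the gamma family includes the TARPs, which escort AMPA-type glutamate receptors. The sodium-potassium pump restores the ion gradients after each spike, SERCA pumps return calcium to the endoplasmic reticulum, and plasma membrane calcium pumps expel it from the cell. Serotonin neurons of the dorsal raphe are known for slow, regular firing, in which calcium entry and the afterhyperpolarization that follows it set the interval between spikes.

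The arrays differed in how much signal stood clear of background, and this bears on every value below. The floor of an array was the 95th percentile of its 59 negative control probe sets, and it ran from 29.99 on estrogen 1 to 283 on estrogen+progesterone 2. On estrogen 1, estrogen 2 and estrogen+progesterone 1 between 49.6% and 62.2% of probe sets exceeded the floor, and these are called the high-signal arrays; on both placebo arrays and estrogen+progesterone 2 the share was 28.7% to 37.3%, and these are called the low-signal arrays. Over 26383 tested probe sets, the correlation of normalized log2 values was 0.91 between estrogen 1 and estrogen+progesterone 1 but 0.00048 between the 2 arrays of the combined group. In estrogen against placebo, hormone and array signal cannot be told apart, because each group lies wholly in one class of array. The combined group has 1 array of each kind, and for the channel and pump genes many of its values are given with and without the low-signal one. Among markers of the captured cell type, TPH2, the brain enzyme of serotonin synthesis, exceeded the floor on 2 of 6 arrays (54.0 on estrogen 1 and 63.2 on estrogen 2). FEV, the transcription factor of serotonin neurons, exceeded it on all 6. In bulk RNA, fewer cells of a type and less RNA per cell cannot be told apart.

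Channel and pump probe sets exceeded the floor unevenly across monkeys. Of the 62, the number above it was 27 and 26 in the placebo monkeys, 45 and 41 in the estrogen monkeys, and 34 and 24 in the combined group. The counts follow the array: the 3 high-signal arrays hold the 3 highest. On all 6 arrays 10 of the 62 were above the floor (16.1%), beside 11.9% of all probe sets with 1 gene symbol, and 11 (17.7%) exceeded it on none, beside 14.4%. Taking each gene by its brightest probe set, 7 of 35 genes were above the floor on every array: SCN1A, SCN3A, SCN4A, CACNA2D2, ATP1B1, ATP2A2 and ATP2B1. Another 5 were above it on none, namely CACNA1C, ATP1A4, ATP1B4, ATP2A1 and ATP2B4. In all, 21 genes exceeded the floor on the 3 high-signal arrays together and 8 on the 3 low-signal arrays together. A gene under the floor is not shown to be absent, since a probe set can bind its transcript poorly.

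**Figure D1:**
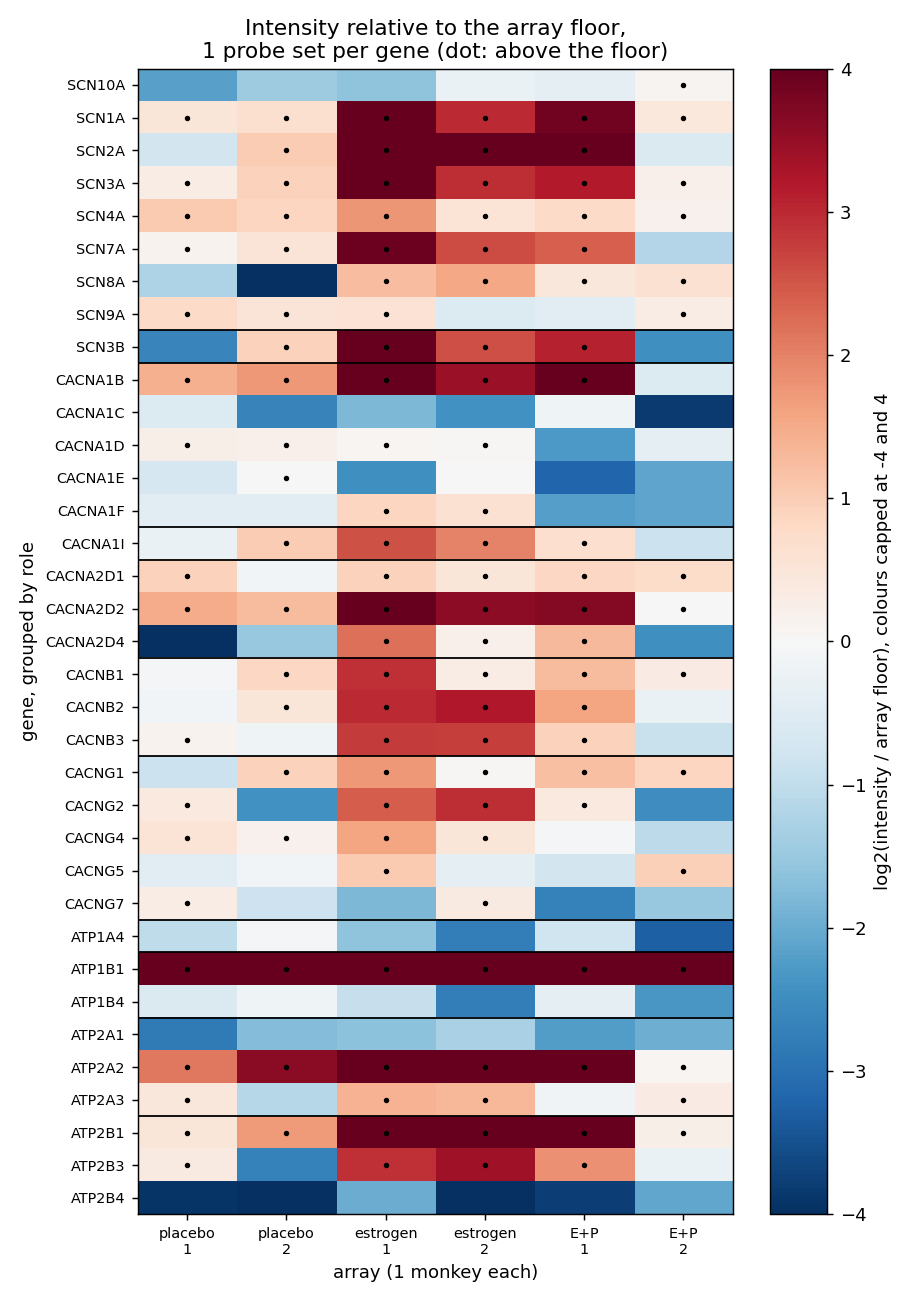
Log2 ratio of intensity to the array floor for the brightest probe set of each of the 35 genes (rows, grouped by role) on the 6 arrays (columns, 1 monkey each; E+P is the combined group). Colours are capped at -4 and 4 and a dot marks a value above the floor; values compare along a row only, and dots are densest on estrogen 1, estrogen 2 and E+P 1.

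No member passed the test in any of the 3 comparisons, so all differences below are values with their errors and not calls. After adding 16, the deposited intensities were log2-transformed and quantile normalized, and the brighter part of the array, 26383 probe sets whose mean reached the 50th percentile, was fitted with limma over all 6 arrays. Of the 62 members, 40 probe sets of 25 genes passed that intensity filter. A probe set counts as called at a Benjamini-Hochberg adjusted p under 0.05 over all tested probe sets. The members called were 0 of 40 for estrogen minus placebo (background 0% of 26383), 0 of 40 for the combined group minus placebo (background 0%) and 0 of 40 for the combined group minus estrogen (background 0%). At an unadjusted limma p under 0.05 there were 1, 3 and 0 of 40, beside 7.83%, 3.30% and 1.76% of all tested probe sets. The members' adjusted limma p ran from 0.635 to 0.979, from 0.992 to 0.999 and from 0.799 to 0.999 in those comparisons. Median standard errors were 0.920 log2 units for the members and 0.945 for all tested probe sets, so differences of 1 log2 unit lay near the size of 1 standard error. Without estrogen+progesterone 1, which leaves the combined group to its low-signal array and assumes that this monkey varies like the others, 3599 probe sets were called between the hormone groups (background 13.6%) and with them 2 of 41 members. These were ATP2A2 at -3.22 ± 0.77 and CACNG5 at 2.93 ± 0.71 (limma adjusted p 0.0464 and 0.0469). The smallest two-sided p of an exact permutation test between 2 groups of 2 monkeys is 0.333.

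Sodium channel alpha subunits form the pore of the channel. Of 10 listed genes 8 were named on the array by 12 probe sets, 3 exceeded the floor on every array and 6 on each of the 3 high-signal arrays. SCN1A, a neuronal pore subunit common in inhibitory and fast-firing cells, had intensities of 299 and 347 in placebo, 1367 and 405 in estrogen, and 1097 and 377 in the combined group. Estrogen 1 and estrogen+progesterone 1 were the high arrays, and the estrogen monkeys did not overlap with the placebo monkeys. Its log2 difference was 0.92 ± 0.88 (SE, n = 2 per group) for estrogen minus placebo (95% interval -1.05 to 2.88, limma adjusted p 0.778), 0.28 without estrogen 1, and 0.83 ± 0.88 for the combined group minus placebo (limma adjusted p 0.992). Between the hormone groups it was -0.09 ± 0.88, a value that turned to 0.46 without estrogen 1 and to 0.51 without estrogen+progesterone 2. Another SCN1A probe set read 176 and 211 in placebo, 90.9 and 57.0 in estrogen, and 111 and 287 in the combined group, with an estrogen minus placebo difference of -0.14 ± 0.82.

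SCN3A, a pore subunit known from developing brain, read 262 and 422 in placebo, 596 and 403 in estrogen, and 678 and 328 in the combined group. The placebo and estrogen monkeys overlapped, as did the placebo and combined groups. The differences were 0.43 ± 0.87 for estrogen minus placebo (95% interval -1.51 to 2.38, limma adjusted p 0.901), 0.32 ± 0.87 for the combined group minus placebo and -0.11 ± 0.87 between the hormone groups. Their signs rest on single arrays: without placebo 1 the differences from placebo were -0.15 and -0.27, and without estrogen+progesterone 1 the latter was -0.17. Between the hormone groups the value was 0.07 without estrogen 1 and 0.44 without estrogen+progesterone 2.

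SCN2A and SCN8A stood higher in both estrogen monkeys than in both placebo monkeys after normalization, with 1 and 2 of the placebo monkeys under the floor on their brightest probe sets. SCN2A, a main pore subunit of excitatory axons, read 130.2 and 442 in placebo, 1295 and 3263 in estrogen, and 1279 and 190.4 in the combined group. Placebo 1 and estrogen+progesterone 2 lay below their floors, while the estrogen monkeys lay above both placebo monkeys. Its estrogen minus placebo difference was 2.58 ± 1.19 (95% interval -0.08 to 5.24, limma adjusted p 0.637), and that of its second probe set was 1.76 ± 0.89, with both placebo values under the floor and an estrogen level at least 1.31-fold higher than the lowest level that could be measured there. A bound of this kind sets the bright group's normalized mean against the array floors of the dim group. It holds on the normalized scale only and carries no sampling error, so it is not a guaranteed smallest change. Leaving out a placebo array put the brightest SCN2A probe set at 1.41 without placebo 1 and 3.998 without placebo 2. In the combined group SCN2A was split, 1279 on the high-signal array against 190.4 on the low-signal one, and its difference from placebo was 0.62 ± 1.19, or 2.19 without estrogen+progesterone 2 and -0.72 without estrogen+progesterone 1. With signal class as a term in the model, which leaves only the combined group to separate class from hormone, the estrogen minus placebo difference of SCN2A was -0.22.

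SCN8A, the pore subunit of mature initial segments and nodes, read 92.4 and 12.5 in placebo, 69.8 and 152 in estrogen, and 103 and 432 in the combined group, below the floor in both placebo monkeys and above it on the other 4 arrays. After normalization both hormone groups lay above placebo without overlap. The differences were 2.07 ± 0.96 for estrogen (95% interval -0.09 to 4.22, limma adjusted p 0.640) and 2.76 ± 0.96 for the combined group (95% interval 0.60 to 4.91, limma adjusted p 0.992). On the normalized scale they give bounds of at least 1.02-fold and at least 1.65-fold higher. In deposited intensities both estrogen values and the combined-group value of 103 lay under the placebo floors of 216 and 221. The estrogen difference was 1.11 without normalization, 1.27 without placebo 2 and 3.77 with signal class in the model. Within the combined group estrogen+progesterone 2 read higher, and without it the difference was 1.87. The other SCN8A probe set, under the intensity filter, went the opposite way at -1.79 and -1.06, with intensities of 236 and 212 in placebo, 35.4 and 5.85 in estrogen, and 10.7 and 279 in the combined group.

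SCN4A and SCN9A stood lower with estrogen than with placebo. SCN4A, the pore subunit of skeletal muscle, read 442 and 397 in placebo, 103 and 75.5 in estrogen, and 127 and 317 in the combined group, above the floor on all 6 arrays. Both placebo monkeys lay above all hormone-treated monkeys. The differences from placebo were -1.68 ± 0.82 with estrogen (95% interval -3.50 to 0.14, limma adjusted p 0.645), a sign that turned to 0.15 when arrays were scaled to their spiked hybridization controls, and -1.12 ± 0.82 in the combined group (limma adjusted p 0.992). Between the hormone groups it was 0.56 ± 0.82, or -0.53 under hybridization control scaling. Set against each array's own floor, SCN4A was at 2.04 and 1.80 times the floor in placebo, 3.42 and 1.46 in estrogen and 1.70 and 1.12 in the combined group, and on that measure the groups overlapped. Of 4 muscle markers named on the array (CKM, TNNT2, MYL2 and TNNI1) none exceeded the floor on each of the 3 high-signal arrays and CKM exceeded it on all 3 low-signal ones. Their summed raw intensity was 638 and 803 in placebo, 151 and 353 in estrogen, and 228 and 1305 in the combined group. Array floors were likewise higher in placebo, at 216 and 221, than in estrogen, at 29.99 and 51.6. In the combined group they were 74.9 and 283, so background may make up much of these sums. After normalization the estrogen minus placebo differences of these markers were split, at -1.86 for CKM and -1.15 for TNNI1 but 0.68 for TNNT2 and 1.27 for MYL2. Their part in the SCN4A values was not tested.

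SCN9A, a pore subunit best known from pain-sensing and autonomic neurons, read 367 and 319 in placebo, 45.2 and 35.2 in estrogen, and 54.2 and 349 in the combined group. The 3 low-signal arrays held the 3 highest intensities. Estrogen minus placebo was -2.02 ± 0.92 (95% interval -4.06 to 0.03, limma adjusted p 0.635), and the combined group overlapped with placebo at -1.02 ± 0.92. The latter was -0.088 without estrogen+progesterone 1 and -2.04 without estrogen+progesterone 2, and with signal class in the model the estrogen difference was -0.17. SCN9A and SCN1A are neighbours in the RefSeq gene table, as are SCN3A and SCN2A. On the brightest probe sets the signs of estrogen minus placebo differed within the first pair. The second SCN1A probe set, at -0.14, had the same sign as SCN9A. With signal class in the model the brightest SCN1A probe set was at -0.19, also the sign of SCN9A. SCN7A, an atypical subunit that senses extracellular sodium, was at 238 and 319 in placebo and 454 and 316 in estrogen, with a difference of 0.62 ± 0.95, or -1.51 with signal class in the model. SCN10A, a subunit of peripheral sensory neurons, exceeded the floor only on estrogen+progesterone 2, at 308, and did not pass the intensity filter. Over the 7 tested alpha subunits, 5 differences from placebo lay above 0 with estrogen (median 0.62) and 4 in the combined group (median 0.32); with signal class in the model the first count was 1 of 7. The background share of all 9781 tested genes above 0 was 60.6% and 46.2%.

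SCN3B was the only sodium channel beta subunit named on the array; it modulates and anchors the pore. Its brightest probe set read 34.7 and 416 in placebo, 663 and 305 in estrogen, and 637 and 51.3 in the combined group. Placebo 1 and estrogen+progesterone 2 stood at 0.16 and 0.18 times their floors, while placebo 2 and the 3 high-signal arrays were above theirs. The estrogen and placebo groups overlapped, with a difference of 1.65 ± 1.42 (95% interval -1.52 to 4.81, limma adjusted p 0.755). With signal class in the model it turned to -1.95. A second probe set stood higher in estrogen without overlap, at 1.61 ± 0.85 and at least 1.82-fold, from intensities of 119.9 and 153 in placebo, 327 and 234 in estrogen, and 268 and 189 in the combined group, and its difference with signal class in the model was 0.35.

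**Figure D2:**
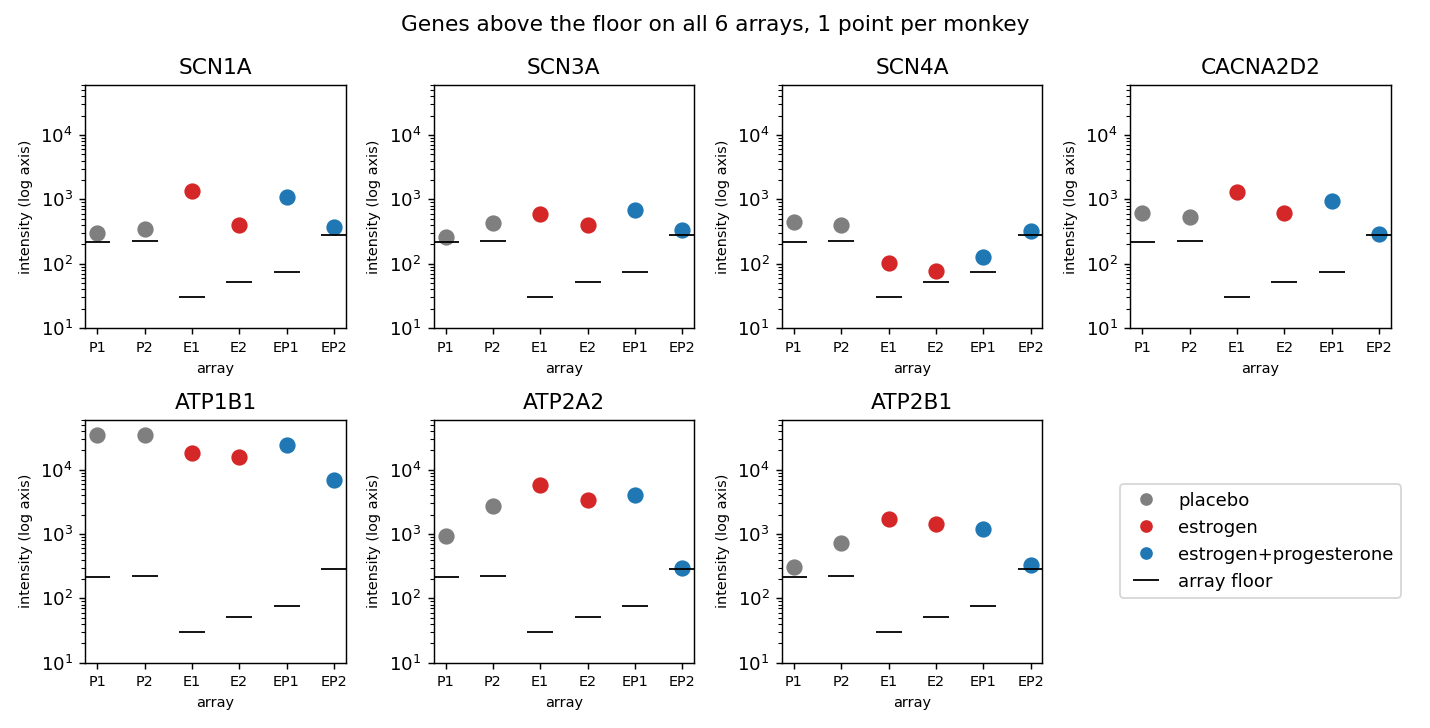
Deposited intensity (log axis) of the 7 genes whose brightest probe set exceeded the floor on all 6 arrays, 1 point per monkey; P1 and P2 are placebo, E1 and E2 estrogen, EP1 and EP2 estrogen with progesterone, and the black bar is the floor of that array. Points stand farther above the bar on E1, E2 and EP1 than on the other arrays in 6 of the genes, while SCN4A lies between 1.12 and 3.42 times the floor.

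High-voltage calcium channel pores were mostly near or under the floor. Of 7 listed genes 5 were named, none exceeded the floor on every array, and 2 passed the intensity filter. CACNA1B, the N-type pore that drives transmitter release, read 584 and 734 in placebo, 1436 and 571 in estrogen, and 1695 and 195 in the combined group, above the floor on every array but estrogen+progesterone 2. Placebo and estrogen overlapped, and the difference was -0.37 ± 1.08 (95% interval -2.77 to 2.04, limma adjusted p 0.935), or -3.43 with signal class in the model. The combined group was split by array and its difference from placebo, -1.18 ± 1.08, was 0.39 without estrogen+progesterone 2. The second CACNA1B probe set stood lower than placebo without overlap in both hormone groups, at -1.03 ± 0.89 and -1.31 ± 0.89.

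CACNA1D, an L-type pore that opens near the resting potential and supports pacemaking, read 252 and 252 in placebo, 31.5 and 53.8 in estrogen, and 15.2 and 214 in the combined group. Both placebo monkeys stood above all 4 hormone-treated monkeys, although no value was above 1.17 times its own floor. Its differences from placebo were -1.20 ± 0.91 with estrogen (95% interval -3.23 to 0.83, limma adjusted p 0.727) and -1.45 ± 0.91 in the combined group (95% interval -3.48 to 0.57, limma adjusted p 0.992), at least 1.28-fold lower since both combined-group arrays were under the floor. Without estrogen+progesterone 1 the latter was -0.47, and with signal class in the model the estrogen difference was 0.74.

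The remaining high-voltage pores could not be followed. CACNA1C, the other main L-type pore of brain, read 147 and 34.8 in placebo, 8.54 and 9.56 in estrogen, and 66.6 and 19.8 in the combined group, under the floor on all 6 arrays. CACNA1E, the R-type pore, read 135 and 221 in placebo, 5.50 and 51.4 in estrogen, and 8.28 and 65.9 in the combined group, above the floor on placebo 2 only. CACNA1F, an L-type pore of the retina, exceeded its floor only on the estrogen arrays at 54.5 and 79.5. CACNA1I was the only T-type pore named; T-type channels open at low voltage and drive rebound firing. Its brightest probe set read 179 and 448 in placebo, 176 and 204 in estrogen, and 119 and 157 in the combined group, with an estrogen minus placebo difference of -0.11 ± 0.93 (limma adjusted p 0.979) and -0.95 ± 0.93 in the combined group. A second CACNA1I probe set gave 1.29 ± 1.33 in the combined group and 2.71 ± 1.33 between the hormone groups, where the combined group was at least 3.44-fold higher (limma adjusted p 0.799). The combined group read 82.6 and 503, and the last difference was 1.46 without estrogen+progesterone 2 and 3.79 without estrogen+progesterone 1. Its placebo monkeys read 426 and 23.8 and lay on either side of both estrogen monkeys after normalization. CACNA1A, CACNA1G and CACNA1H were not analysed here.

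The alpha2delta subunits are the extracellular partners that raise channel number at the membrane, and the sign of both tested members with estrogen depended on the scaling. CACNA2D1, the binding site of gabapentin, read 406 and 203 in placebo, 57.0 and 72.0 in estrogen, and 133 and 468 in the combined group. The estrogen monkeys lay below the placebo monkeys and below the combined group after normalization. The difference was -1.08 ± 0.95 for estrogen minus placebo (95% interval -3.20 to 1.04, limma adjusted p 0.759), which became 0.21 under hybridization control scaling and 0.57 with signal class in the model. It was -0.30 without placebo 1 and -2.01 without placebo 2. The combined group minus estrogen was 1.42 ± 0.95 (95% interval -0.69 to 3.54, limma adjusted p 0.799), and 0.62 without estrogen+progesterone 2 and 2.12 without estrogen+progesterone 1. On every array but placebo 2 it was above the floor, at 1.40 to 1.90 times.

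CACNA2D2, a subunit prominent in cerebellar Purkinje cells, read 605 and 536 in placebo, 1308 and 621 in estrogen, and 945 and 288 in the combined group, above the floor on all 6 arrays. Estrogen and placebo overlapped after normalization at a difference of -0.13 ± 0.90 (95% interval -2.13 to 1.88, limma adjusted p 0.975), which was 0.65 without normalization between arrays, 1.89 with median centering and 3.02 with hybridization control scaling. It was also 0.21 without estrogen 2. The combined group minus placebo was -0.87 ± 0.90, turning to 0.33 with median centering and 0.55 with hybridization control scaling. Between the hormone groups the value was -0.74 ± 0.90, and 0.12 without estrogen+progesterone 2. CACNA2D4, a retinal subunit, exceeded the floor only where the array was high-signal, at 137, 58.9 and 186.

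Calcium channel beta subunits, the cytoplasmic partners that gate and traffic the pore, all exceeded the floor on each high-signal array. CACNB2 read 202 and 306 in placebo, 236 and 480.5 in estrogen, and 225 and 238 in the combined group, with an estrogen minus placebo difference of 0.78 ± 0.85 (limma adjusted p 0.808). CACNB3 read 238 and 197 in placebo, 208 and 353 in estrogen, and 143 and 154 in the combined group, with 0.89 ± 0.83 for estrogen minus placebo. Both stood higher in estrogen than in placebo without overlap after normalization, and lower in the combined group than in estrogen, at -0.73 ± 0.85 and -1.08 ± 0.83 (limma adjusted p 0.806 and 0.799). For CACNB2 the gap to placebo was almost nil, with normalized log2 values of 8.19235 on estrogen 1 and 8.1917 on placebo 2. In deposited intensities estrogen and placebo overlapped for both genes. With signal class in the model the estrogen minus placebo values were 0.066 for CACNB2 and -0.0090 for CACNB3. The CACNB3 value between the hormone groups was -1.48 without estrogen+progesterone 1 and -0.69 without estrogen+progesterone 2. The 3 CACNB2 probe sets gave 0.78, 0.98 and -0.58 for estrogen minus placebo, so 1 of them went the other way. CACNB1, the isoform of skeletal muscle that is also found in brain, read 205 and 394 in placebo, 228 and 63.0 in estrogen, and 181 and 353 in the combined group and overlapped in all comparisons, with -0.57 ± 0.92 for estrogen minus placebo.

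The gamma family differed from member to member. CACNG2, known as stargazin, an AMPA receptor TARP, read 284 and 41.4 in placebo, 161 and 401 in estrogen, and 97.8 and 50.2 in the combined group. The combined group lay below estrogen without overlap, at -1.87 ± 1.07 (95% interval -4.26 to 0.52, limma adjusted p 0.799), or -1.10 without estrogen+progesterone 2 and -2.69 without estrogen+progesterone 1, while the placebo monkeys overlapped with both. CACNG1, the gamma subunit of skeletal muscle, read 119 and 417 in placebo, 98.9 and 53.9 in estrogen, and 171 and 516 in the combined group and gave 1.65 ± 1.06 for the combined group minus estrogen (95% interval -0.71 to 4.02, limma adjusted p 0.799), or 0.84 without estrogen+progesterone 2. Its probe set identifier ends in _s_at, a suffix for probe sets that can bind transcripts of related genes, as do those of 7 member probe sets in all. The brightest probe sets of ATP1B1 and ATP2A3 are among them.

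CACNG4, a TARP of developing and adult brain, read 314 and 249.8 in placebo, 90.3 and 71.8 in estrogen, and 72.2 and 137 in the combined group, highest in both placebo monkeys. Its combined group minus placebo difference was -1.22 ± 0.81 (95% interval -3.04 to 0.59, limma adjusted p 0.992), at least 1.53-fold lower. The second CACNG4 probe set gave the opposite sign, 2.07 ± 0.90, at least 1.62-fold higher than placebo. Its intensities were 51.9 and 113 in placebo, 79.1 and 139 in estrogen, and 103 and 423 in the combined group. The CACNG4 bounds point opposite ways, and neither carries sampling error. CACNG5, a TARP in one run of neighbours with CACNG4 and CACNG1 in the RefSeq gene table, read 161 and 202 in placebo, 62.5 and 39.1 in estrogen, and 45.4 and 548 in the combined group. Its combined group minus estrogen difference of 1.37 ± 1.13 was -0.35 without estrogen+progesterone 2. The second CACNG5 probe set, with the suffix _s_at, read 249.7 and 282 in placebo, 21.9 and 50.1 in estrogen, and 115 and 284 in the combined group, lowest in both estrogen monkeys. Its combined group minus estrogen difference was 1.35 ± 0.81 (limma adjusted p 0.799), at least 2.22-fold higher without overlap, and 1.15 without estrogen+progesterone 2. Its estrogen minus placebo difference was -1.57 ± 0.81 (limma adjusted p 0.651), at least 2.60-fold lower. CACNG7 was above the floor on placebo 1 and estrogen 2 only, at 263 and 66.7.

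Sodium-potassium pump values came mainly from ATP1B1, the beta subunit that folds the pump and brings it to the membrane. It exceeded the floor on every array with 3 of its 4 probe sets, and the identifier of the brightest ends in _s_at. The brightest read 34329 and 34792 in placebo, 17954 and 15508 in estrogen, and 24493 and 6859.6 in the combined group, at 24.2 to 599 times the array floor. After normalization the groups overlapped in every comparison, with -0.36 ± 0.85 for estrogen minus placebo (95% interval -2.25 to 1.54, limma adjusted p 0.917), -0.35 ± 0.85 for the combined group minus placebo and 0.0047 ± 0.85 between the hormone groups. Estrogen minus placebo was 0.20 with median centering and 1.35 with hybridization control scaling. The other probe sets of ATP1B1 gave 1.78, 0.48 and 0.34 for estrogen minus placebo, so 3 of 4 were above 0.

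Agreement between ATP1B1 probe sets was poor on single monkeys. On placebo 1 and placebo 2 one probe set, also with the suffix _s_at, read 9344 and 299. Another read 998 and 4592, the reverse order of the same 2 animals. Without estrogen+progesterone 2 the brightest probe set's combined group minus placebo value was 0.18. Between the hormone groups its sign also turned in 3 of the 6 fits that leave out 1 array: -0.59 without estrogen+progesterone 1, -0.37 without estrogen 2 and -0.01 without placebo 2. That difference was -0.36 without normalization, -1.16 with median centering and -2.11 with hybridization control scaling. ATP1B4, a beta-like protein of muscle, and ATP1A4, the alpha subunit of sperm, stayed under the floor on their brightest probe sets. ATP1B2 was not analysed here.

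SERCA pumps were carried by ATP2A2, the isoform that fills the endoplasmic reticulum in neurons and most other cells. It read 927 and 2683 in placebo, 5708 and 3388 in estrogen, and 4034 and 296 in the combined group. Estrogen+progesterone 2 was the lowest array, at 1.04 times its floor, and the estrogen monkeys overlapped with placebo after normalization. The differences were 0.33 ± 1.12 for estrogen minus placebo (95% interval -2.18 to 2.84, limma adjusted p 0.944), -1.50 ± 1.12 for the combined group minus placebo (limma adjusted p 0.992) and -1.82 ± 1.12 between the hormone groups (limma adjusted p 0.799). Without estrogen+progesterone 2 the last 2 values were 0.14 and -0.22. Without placebo 1 the estrogen difference was -0.31, with signal class in the model it was -2.91, and hybridization control scaling put the combined group minus placebo at 0.18.

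The second ATP2A2 probe set read 241 and 25.3 in placebo, 264 and 208 in estrogen, and 245 and 314 in the combined group. Its combined group minus placebo difference was 1.84 ± 0.99, opposite in sign to the first. ATP2A3, an isoform of platelets and lymphoid cells, read 293 and 100.2 in placebo, 78.1 and 128 in estrogen, and 68.3 and 355 in the combined group and gave 0.22 ± 0.96 for estrogen minus placebo (limma adjusted p 0.958). ATP2A1, the fast muscle isoform, was under the floor on all 6 arrays on both of its probe sets.

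Plasma membrane calcium pumps gave positive values with estrogen on all 4 of their tested probe sets, which come from only 2 genes. ATP2B1 has 3 of them and ATP2B3 the other. Of all 9781 tested genes 60.6% were above 0 in that comparison. With signal class in the model the brightest ATP2B1 probe set was at -0.58. ATP2B1, the widely expressed isoform, read 303 and 723 in placebo, 1686 and 1407 in estrogen, and 1194 and 333 in the combined group. Its estrogen monkeys stood above both placebo monkeys, and the combined group overlapped with placebo. The differences were 0.96 ± 0.96 for estrogen minus placebo (95% interval -1.18 to 3.10, limma adjusted p 0.789), -0.06 ± 0.96 for the combined group minus placebo and -1.02 ± 0.96 between the hormone groups (limma adjusted p 0.799). The first was 0.064 without placebo 1 and 1.98 without placebo 2. The second of these was 0.42 without normalization, 0.86 with median centering and 1.08 with hybridization control scaling; it was 0.90 without placebo 2 and 0.79 without estrogen+progesterone 2.

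Another ATP2B1 probe set had the smallest unadjusted p of the members in both comparisons with placebo. It read 152 and 67.7 in placebo, 523 and 378 in estrogen, and 331 and 437 in the combined group, under the floor in both placebo monkeys and above it on the other 4 arrays, and the 2 hormone groups did not overlap with placebo. Its differences were 2.36 ± 0.83 with estrogen (95% interval 0.50 to 4.22, limma adjusted p 0.635) and 2.41 ± 0.83 in the combined group (95% interval 0.55 to 4.27, limma adjusted p 0.992). These correspond to levels at least 2.48-fold and at least 2.56-fold higher than placebo. Without estrogen+progesterone 2 the combined group minus placebo difference was 2.25, and without estrogen+progesterone 1 it was 2.57. The remaining ATP2B1 probe set, above the floor on all 6 arrays, gave 0.38 ± 0.81 and 0.31 ± 0.81. Both comparisons share the placebo monkeys.

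ATP2B3, an isoform largely of neurons, read 274 and 33.9 in placebo, 228 and 539 in estrogen, and 265 and 234 in the combined group. The low placebo 2 value, at 0.15 times its floor, sat beside a placebo 1 value above the floor, and the estrogen monkeys stood above both after normalization. Estrogen minus placebo was 1.96 ± 1.03 (95% interval -0.34 to 4.27, limma adjusted p 0.653). It was 0.69 without placebo 2 and 3.38 without placebo 1. The combined group minus placebo was 1.26 ± 1.03. ATP2B4 was under the floor on all 6 arrays, and ATP2B2 was not analysed here.

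**Figure D3:**
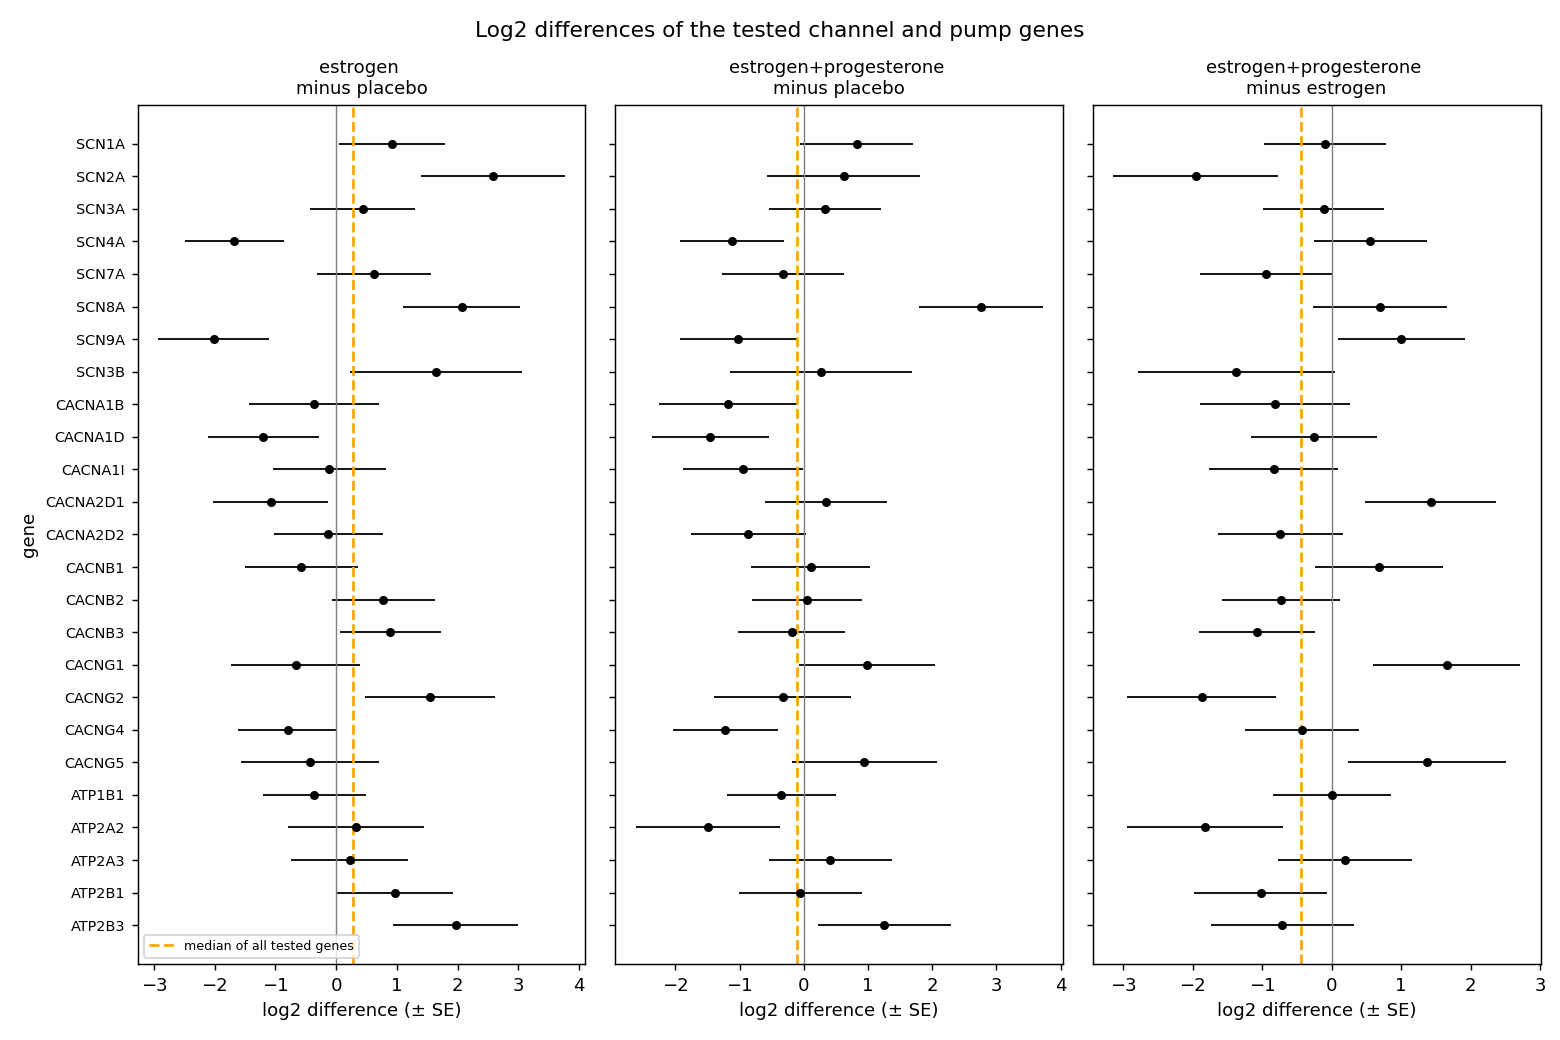
Log2 difference (point) with 1 standard error to each side (bar) for the 25 tested channel and pump genes in the 3 comparisons, with 0 as a grey line and the median of all 9781 tested genes as a dashed orange line. SCN2A, SCN8A and ATP2B3 lie farthest right with estrogen at 2.58, 2.07 and 1.96, SCN9A and SCN4A farthest left at -2.02 and -1.68, both placebo arrays of SCN8A were under the floor, and no gene passed the adjusted threshold.

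Counted as a set, the channel and pump genes lay near the background of the array in every comparison. For estrogen minus placebo 13 of 25 genes were above 0 (52.0%, background 60.6%), and the median difference was 0.22 against 0.28 over all 9781 tested genes. The groups did not overlap with estrogen higher in 15 of 40 probe sets (37.5%, background 29.0%) and with estrogen lower in 7 (17.5%, background 24.8%). In the combined group minus placebo 12 of 25 genes were above 0 (48.0%, background 46.2%), with medians of -0.06 and -0.10, and 8 and 5 of 40 probe sets did not overlap (20.0% higher and 12.5% lower, background 12.4% and 12.3%). For the combined group minus estrogen 9 of 25 were above 0 (36.0%, background 34.0%), with medians of -0.43 and -0.44, and 5 and 8 of 40 did not overlap (12.5% and 20.0%, background 17.6% and 16.6%). These counts of genes above 0 moved with the scaling: for estrogen minus placebo they were 14 without normalization, 18 with median centering, 23 with hybridization control scaling and 8 with signal class in the model. The scaling moved the array as a whole, since the median of all tested probe sets in that comparison was 0.17 after quantile normalization, -0.09 without it, 1.15 with median centering and 2.23 with hybridization control scaling.

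**Figure D4:**
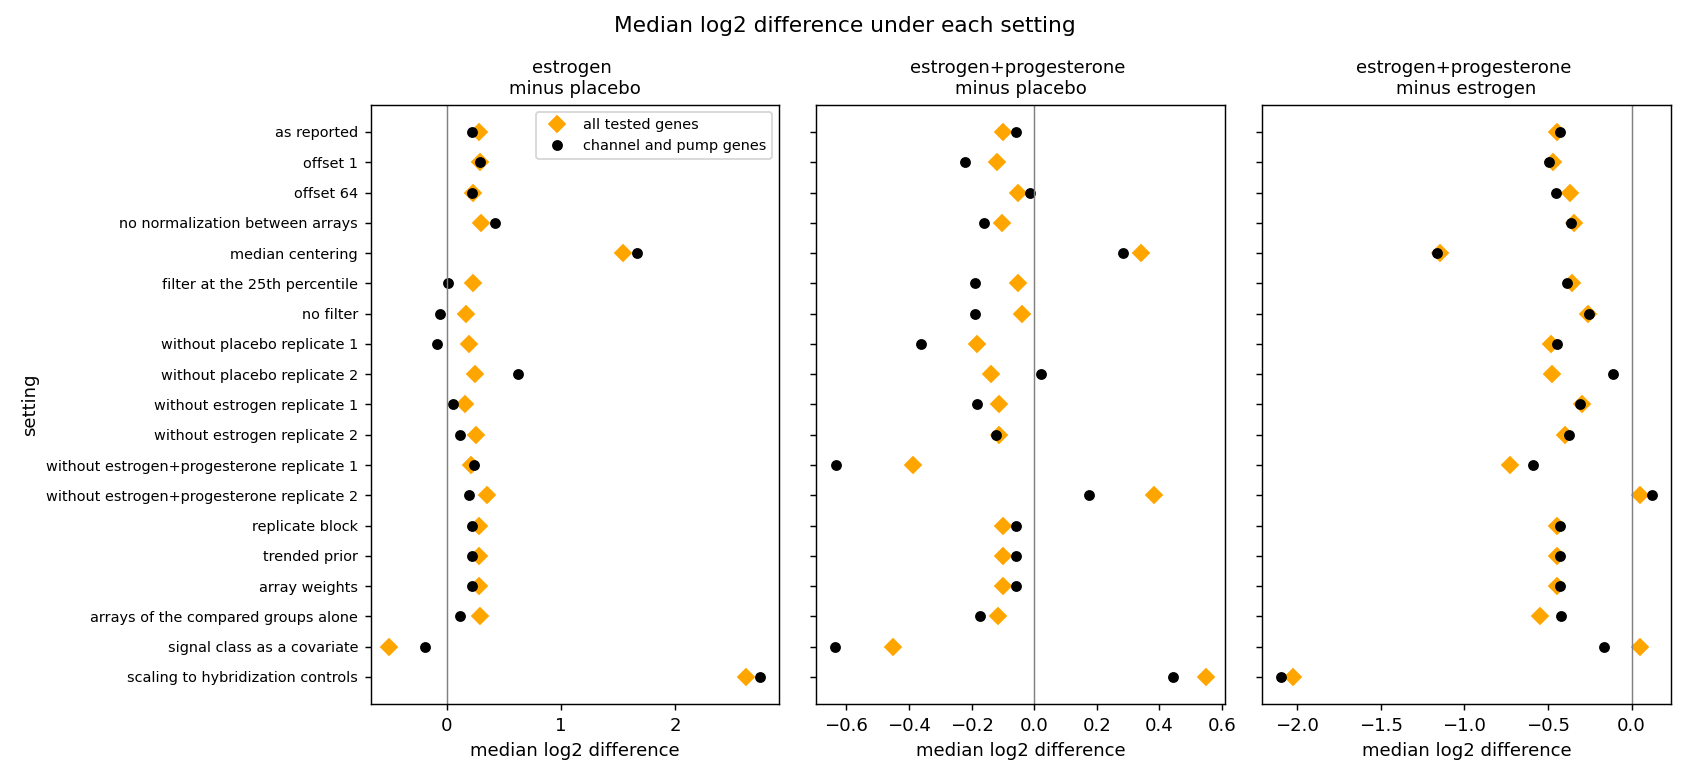
Median log2 difference of the channel and pump genes (black circles) and of all tested genes (orange diamonds) in the 3 comparisons, 1 row per processing setting, with the reported setting at the top. For estrogen minus placebo the channel and pump median and that of all tested genes were 1.66 and 1.54 with median centering, 2.75 and 2.62 with hybridization control scaling, -0.19 and -0.50 with signal class in the model, -0.083 and 0.19 without placebo 1, and 0.63 and 0.25 without placebo 2.

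Probe sets of one gene often disagreed in sign. Among the 20 genes with several probe sets, all probe sets shared one sign in 11 for estrogen minus placebo, in 5 for the combined group minus placebo and in 10 for the combined group minus estrogen. Genes whose probe sets shared a sign with estrogen include SCN2A, SCN3B and ATP2B1 above 0 and CACNA1B, CACNA1I and CACNG5 below 0. Genes that were split include SCN8A, CACNG4 and ATP1B1, whose values by probe set ran from -1.79 to 2.07, from -0.80 to 1.42 and from -0.36 to 1.78. These counts hold probe sets under the intensity filter too, which have no p.

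**Figure D5:**
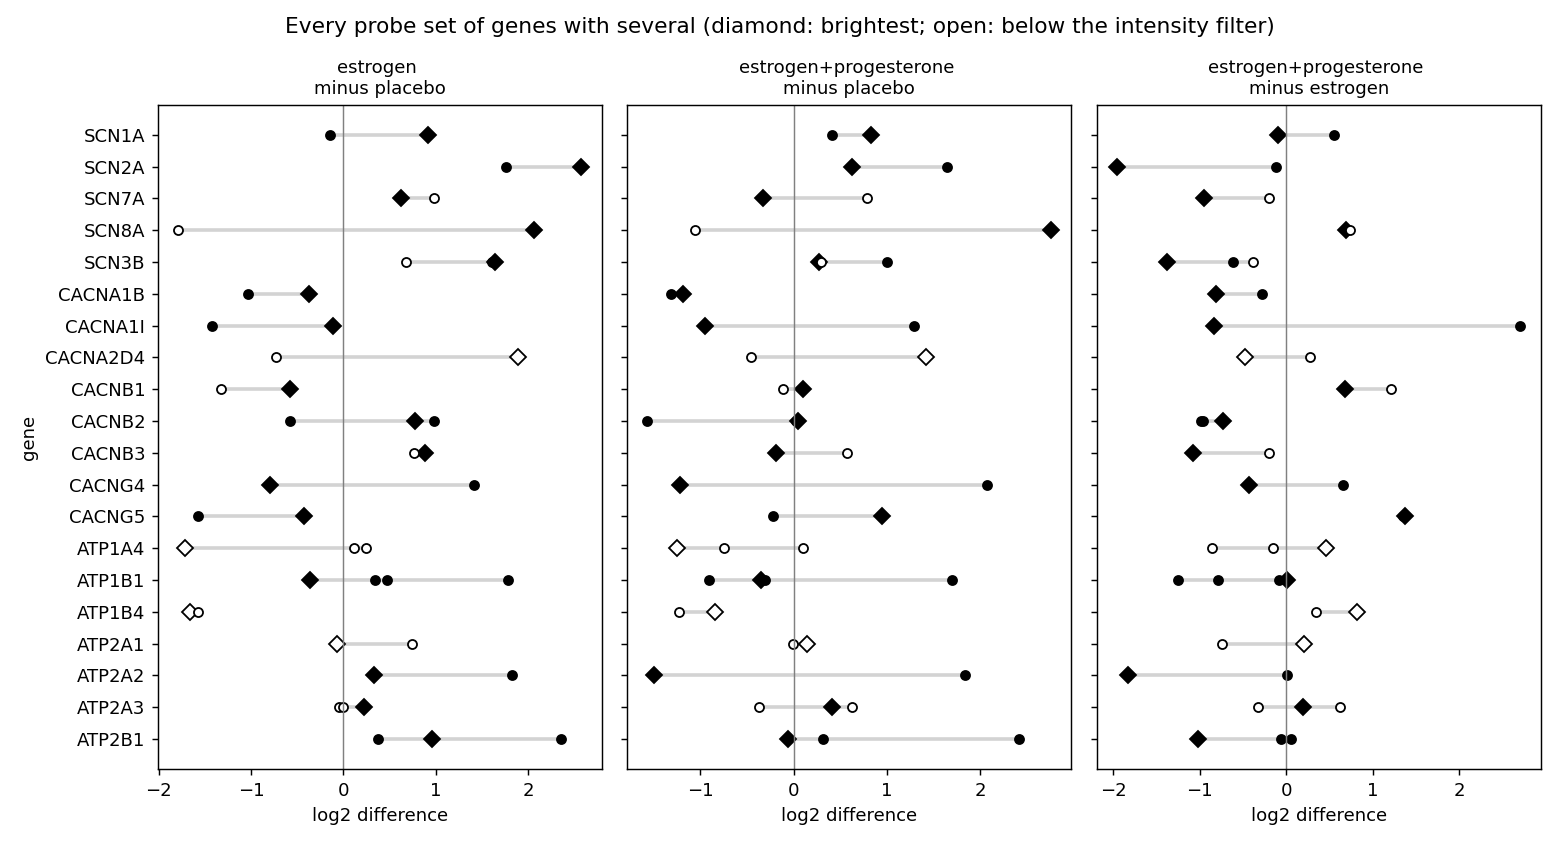
Log2 difference of every probe set (diamond, the brightest of its gene; open symbol, under the intensity filter) for the 20 genes with several, in the 3 comparisons; a grey line joins the probe sets of a gene. SCN8A, CACNG4 and ATP2A2 span 0 in the combined group minus placebo, from -1.06 to 2.76, from -1.22 to 2.07 and from -1.50 to 1.84.

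Proteins that bind or regulate these channels and pumps were read from 4 lists, with 0 genes called in each comparison by limma. Over all 9781 tested genes, the background for the 4 lists, 60.6% were above 0 with estrogen and the median was 0.28. Of the sodium channel partners 9 of 11 were tested, and 5 were above 0 with estrogen (median 0.60). FGF14, an intracellular factor that binds sodium channels at the initial segment, read 222 and 70.8 in placebo, 551 and 1028 in estrogen, and 422 and 291 in the combined group and gave 2.58 ± 0.90 (limma adjusted p 0.635). Both estrogen monkeys stood above both placebo monkeys. The lower FGF14 placebo value, 70.8, was under its floor. CNTN1, an adhesion molecule that joins channel complexes, gave 1.90 ± 0.98 in the combined group. It read 114 and 208 in placebo, both under the floor, and 134 and 586 in the combined group. The higher of these, 586, was on the low-signal array, and the difference without that array is not given.

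Pump regulators had 8 of 13 genes tested and a median of -0.11 with estrogen, 2 above 0. FXYD5, a small subunit of the sodium-potassium pump, read 743 and 649 in placebo, 621 and 365 in estrogen, and 320.5 and 39.6 in the combined group, with both combined-group monkeys below the other 4, and gave -3.04 ± 1.08 against placebo (limma adjusted p 0.992). The 39.6 on estrogen+progesterone 2 was under that array's floor, and the FXYD5 difference without that array is not given. Other calcium transport had 14 of 21 genes tested, 10 above 0 with estrogen (median 0.62, background 60.6% and 0.28). ITPR1, the inositol trisphosphate receptor that releases calcium from the endoplasmic reticulum, read 215 and 217 in placebo, 671 and 1299.5 in estrogen, and 551 and 98.6 in the combined group and gave 2.12 ± 1.02 with estrogen and -1.86 ± 1.02 between the hormone groups (limma adjusted p 0.645 and 0.799). Both ITPR1 placebo values were under the floor. SLC24A4, a potassium-dependent sodium-calcium exchanger, gave 2.50 ± 1.08 with estrogen and was above the floor on 3 of 6 arrays, with both placebo values under it. ATP2C2, a Golgi calcium pump, gave -2.55 ± 1.25 and was above the floor on 2 arrays. Its estrogen values, 10.5 and 27.1, were under it. Calcium channel regulators had 4 of 11 genes tested, 2 of them above 0 with estrogen (median 0.57).

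Markers of neurons and of astrocytes summed highest on the high-signal arrays. Of 6 named neuron markers 5 were above the floor on all 6 arrays, and their summed intensity was 7742 and 12299 in placebo, 28414 and 30027 in estrogen, and 25408 and 2275 in the combined group. Of 6 named astrocyte markers 3 were above the floor on all 6 arrays, with sums of 19047 and 21815, 56937 and 60095, and 65057 and 3168. Markers of other glia did not sort by array class. The 2 named oligodendrocyte markers, MBP and CNP, summed to 32403 and 45620 in placebo, 34940 and 51122 in estrogen, and 48278 and 2349 in the combined group. Microglia markers summed to 2142 and 2836, 2990 and 2374, and 4173 and 1631. On estrogen+progesterone 2 the neuron, astrocyte, oligodendrocyte and microglia sums were each the lowest of the 6 arrays. The brightest probe sets of the members went both ways on that array. Those of ATP1B1, ATP2A2, CACNA1B and CACNA2D2, among others, were at their lowest intensity. Those of SCN8A, SCN10A, CACNA2D1, CACNG1 and CACNG5, among others, were at their highest, 432, 308, 468, 516 and 548. Raw sums of the markers of serotonin neurons, the captured cell type, did not follow the order of the neuron and astrocyte sums. They were 1199 and 1267 in placebo, 1095 and 643 in estrogen, and 825 and 995 in the combined group. Of the 5 named, 2 were above the floor on all 6 arrays, 3 on every high-signal array and 2 on every low-signal array. Floors were 216, 221 and 283 on the low-signal arrays and 29.99, 51.6 and 74.9 on the high-signal ones. These small sums therefore hold unlike shares of background. The dopamine neuron markers TH and SLC6A3 exceeded the floor on each high-signal array and stood highest on estrogen 1, with sums of 739 and 602, 8834 and 752, and 2701 and 186. The part of captured glia or of neuron content in the channel and pump values was not tested.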

How the data were processed

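Members and gene lists were chosen with earlier results of these data known. RNA of 6 monkeys was hybridized to 1 array each, after column extraction and biotin labelling per the labels' protocols. The authors deposited 1 linear intensity per probe set and array, scaled per array to a mean near 200 after trimming 2% from each end, as the values show; on an array with little labelled transcript, scaling of this kind also raises background. The summarization software is not given in the sources used here.

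Probe sets were named from the platform annotation, and all 62 member symbols equal those updated through the RefSeq gene table. Of 52766 probe sets that are not controls, 24956 had 1 symbol. After adding 16, intensities were log2-transformed and quantile normalized. The added 16 shrinks differences of low signals, but quantile normalization can enlarge them. The SCN8A estrogen minus placebo difference, for example, was 2.07 with it and 1.11 without it. Probe sets with a mean under the 50th percentile were left out, and limma 3.58.1 in R 4.3.3 was fitted to all 6 arrays with 1 mean per group and 3 residual degrees of freedom, two-sided, with Benjamini-Hochberg adjustment. The code was tested on simulated data.

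A gene was represented by its probe set with the highest mean. Genes were named if above the floor on all 6 arrays, if the groups did not overlap and differed by 1 or more on the log2 scale (up to 5 each way), or if on a list of main neuronal subunits. Bounds of at least N-fold were computed on the normalized scale where every array of a group was under its floor, and they carry no sampling error. No array of another series was used. Alternatives were the offset, normalization, filter, each array left out, replicate number as a block, variance prior, array weights, arrays of the compared groups alone, signal class as a covariate and, added after seeing the data, scaling to 27 hybridization controls.

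The replicates are separate monkeys, and their number limits the precision. Sequences and genome positions are not given.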

Additional observations from a re-analysis of the deposited data

How the results depend on the processing

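The main limits are 2 monkeys per group, the difference in signal between arrays and probe sets near the floor; moving the floor to the 99th percentile or the median of the negative controls put the members above it at 8 to 43 or at 52 to 59 of 62 across the arrays. Of 638 recomputed values of 34 named differences, 574 kept their direction and side of the threshold, 63 turned sign and 1 passed the threshold; 14 of the 34 kept their sign on the same probe set in every setting. The cause was not tested except where a setting has fewer samples.

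Median differences of the channel and pump genes were, for estrogen minus placebo, 1.66 with median centering, -0.064 with no filter, -0.19 with signal class as a covariate, 2.75 with hybridization control scaling, and -0.083 to 0.63 with 1 array left out. In the combined group minus placebo they were 0.29 with median centering, -0.64 with signal class, 0.44 with hybridization control scaling and -0.63 to 0.18 with 1 array left out. Values for the combined group minus estrogen were -1.16, -0.16, -2.10 and -0.59 to 0.12. Array weights called 434 of 26383 tested probe sets for estrogen minus placebo. With so small a share of the array called, the 0 of 40 tested members among them says little about the members. Leaving out 1 array called 0 to 3599 between the hormone groups, 0 to 2 of them members, with ATP2A2 at -3.22.

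Signal class as a covariate put estrogen minus placebo at -0.22 for SCN2A, 0.74 for CACNA1D, 0.57 for CACNA2D1, -0.19 for SCN1A, -0.58 for SCN3A, -2.91 for ATP2A2 and -0.58 for ATP2B1. It put the combined group minus placebo at -0.18 for SCN3A, and the combined group minus estrogen at 0.46 for SCN1A, 0.40 for SCN3A and 0.11 for CACNA2D2. Hybridization control scaling put estrogen minus placebo at 0.15 for SCN4A, 0.21 for CACNA2D1, 3.02 for CACNA2D2 and 1.35 for ATP1B1, the combined group minus placebo at 0.55 for CACNA2D2, 0.18 for ATP2A2 and 1.08 for ATP2B1, and the combined group minus estrogen at -0.53 for SCN4A and -2.11 for ATP1B1. Median centering gave 1.89 for CACNA2D2 and 0.20 for ATP1B1 with estrogen, 0.33 for CACNA2D2 and 0.86 for ATP2B1 in the combined group minus placebo, and -1.16 for ATP1B1 between the hormone groups. No normalization gave 0.65 for CACNA2D2 with estrogen, 0.42 for ATP2B1 in the combined group minus placebo and -0.36 for ATP1B1 between the hormone groups, where the arrays of the 2 hormone groups alone gave -0.0024.

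Other probe sets of the same gene gave, for estrogen minus placebo, -1.79 for SCN8A, -0.14 for SCN1A and 0.48, 1.78 and 0.34 for ATP1B1. For the combined group minus placebo they gave -1.06 for SCN8A, 2.07 for CACNG4, 1.69 for ATP1B1, 1.84 for ATP2A2, and 0.31 and 2.41 for ATP2B1. For the combined group minus estrogen they gave 0.049 for ATP2B1, 0.55 for SCN1A, -0.78, -0.086 and -1.25 for ATP1B1, and 0.012 for ATP2A2.

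With 1 array left out, estrogen minus placebo ran from -0.15 to 1.10 for SCN3A, -0.44 to 0.21 for CACNA2D2 and -0.31 to 0.95 for ATP2A2. The combined group minus placebo ran from -0.27 to 0.98 for SCN3A, -0.99 to 0.18 for ATP1B1, -2.90 to 0.14 for ATP2A2 and -1.02 to 0.90 for ATP2B1. The combined group minus estrogen ran from -0.65 to 0.51 for SCN1A, -0.57 to 0.44 for SCN3A, -1.46 to 0.12 for CACNA2D2 and -0.59 to 0.53 for ATP1B1. With the replicate number as a block the calls stayed at 0 in each comparison and the differences were the same. Then 2072, 808 and 765 probe sets had an unadjusted limma p under 0.05. Deviations of same-numbered monkeys correlated at -0.03, -0.06 and 0.08. With 2 monkeys per group, and the combined group split by array signal, these values cannot show whether the numbers pair the monkeys.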
